A study of Sus scrofa with 8 samples.

Results

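The fat cell brakes described here are a set of 10 genes known as restraints on the formation of adipocytes or as parts of the pathways that restrain it: the zinc finger factors GATA2, GATA3 and KLF2, the surface protein DLK1, the secreted Wnt pathway proteins SFRP1, SFRP5, WNT5A and WNT10B, and the dominant negative helix-loop-helix factors ID2 and ID3. They were chosen by name, and each was followed through every probe set, the group of short oligonucleotides that reads 1 transcript, annotated with that gene symbol alone. This gave 12 of 23999 probe sets, for 7 of the 10 genes: 4 for GATA3, 2 each for GATA2 and SFRP1, and 1 each for KLF2, WNT10B, ID2 and ID3. The other 3, DLK1, SFRP5 and WNT5A, were matched by no probe set of that symbol and were not analysed here. Total RNA of backfat, the subcutaneous fat over the back, came from KNP pigs aged 7 months (4 samples) and from YS pigs, named Yorkshire in 1 label, aged 6 months (4 samples), raised under identical conditions. Each sample was read on 1 porcine Affymetrix expression array. Breed and age cannot be told apart, the labels used here give no sex, and whether each sample was a different animal is not stated, so the SDs and p-values stand for the spread between these samples.

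Fat cells form when precursor cells of the adipose stroma switch on the transcription factors C/EBP beta and C/EBP delta and then PPAR gamma and C/EBP alpha. GATA2 and GATA3 repress the PPAR gamma gene and bind C/EBP proteins, KLF2 represses the PPAR gamma promoter, and WNT10B keeps precursors undifferentiated through beta-catenin. SFRP proteins bind Wnt ligands outside the cell, and ID proteins capture the E proteins that basic helix-loop-helix activators need as partners. Whether each member acted as a brake in this tissue was not tested. GATA2, KLF2 and the ID factors are also known from blood vessel endothelium, and GATA3 from T cells.

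Arrays of the same breed differed from each other. The tissue label held for all 8: all 6 adipocyte markers with a probe set lay above the control level on every array, with a summed signal between 80020 and 110100 in KNP and between 74060 and 97380 in YS. The control level, used as a guide to background, is the 95th percentile of 23 control probe sets without a target in pig RNA, and it ranged from 40.6 to 161 in signal. The log2 difference between the 3' and 5' probe sets of the housekeeping controls, which grows as RNA is degraded or shortened in labelling, was 7.83 on KNP replicate 1, 5.72 on KNP replicate 2 and 4.32 on YS replicate 4, against 1.84 to 2.97 on the other 5. Skeletal muscle markers summed to 70250 on KNP replicate 2, with all 15 above the control level, and to between 583 and 1604 on the other 7 arrays. In such bulk tissue, fewer cells of a type and less RNA per cell cannot be told apart.

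None of the brakes was separated between the breeds. Over the 12 probe sets, limma made 0 calls at an adjusted p of 0.05 (0% of all 23999 probe sets were called), and every adjusted p was 0.9998 or 0.9999. In 8 of the 12 the mean was higher in KNP, beside 49.6% of all probe sets, and the median log2 difference was 0.27. These 12 repeat some genes. With 1 probe set per gene, the brightest, it was 5 of 7, and among those past the low-signal filter 6 of 9, beside 49.9% of all such. WNT10B alone had an unadjusted p under 0.05 (1 of 12, where 3.06% of all probe sets had one), and the 4 KNP values overlapped the 4 YS values in every case (0 of 12 without overlap, 1.92% of all). The low-signal filter was passed by 9 of the 12; the others, 1 GATA3 probe set and those of WNT10B and ID2, were taken from the fit of all 23999. The median SE of a difference over the 17999 probe sets past the filter was 0.37, and the differences of most members were of that order. These values limit how large a breed difference could have gone unseen, and do not show that the breeds were alike.

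**Figure D1:**
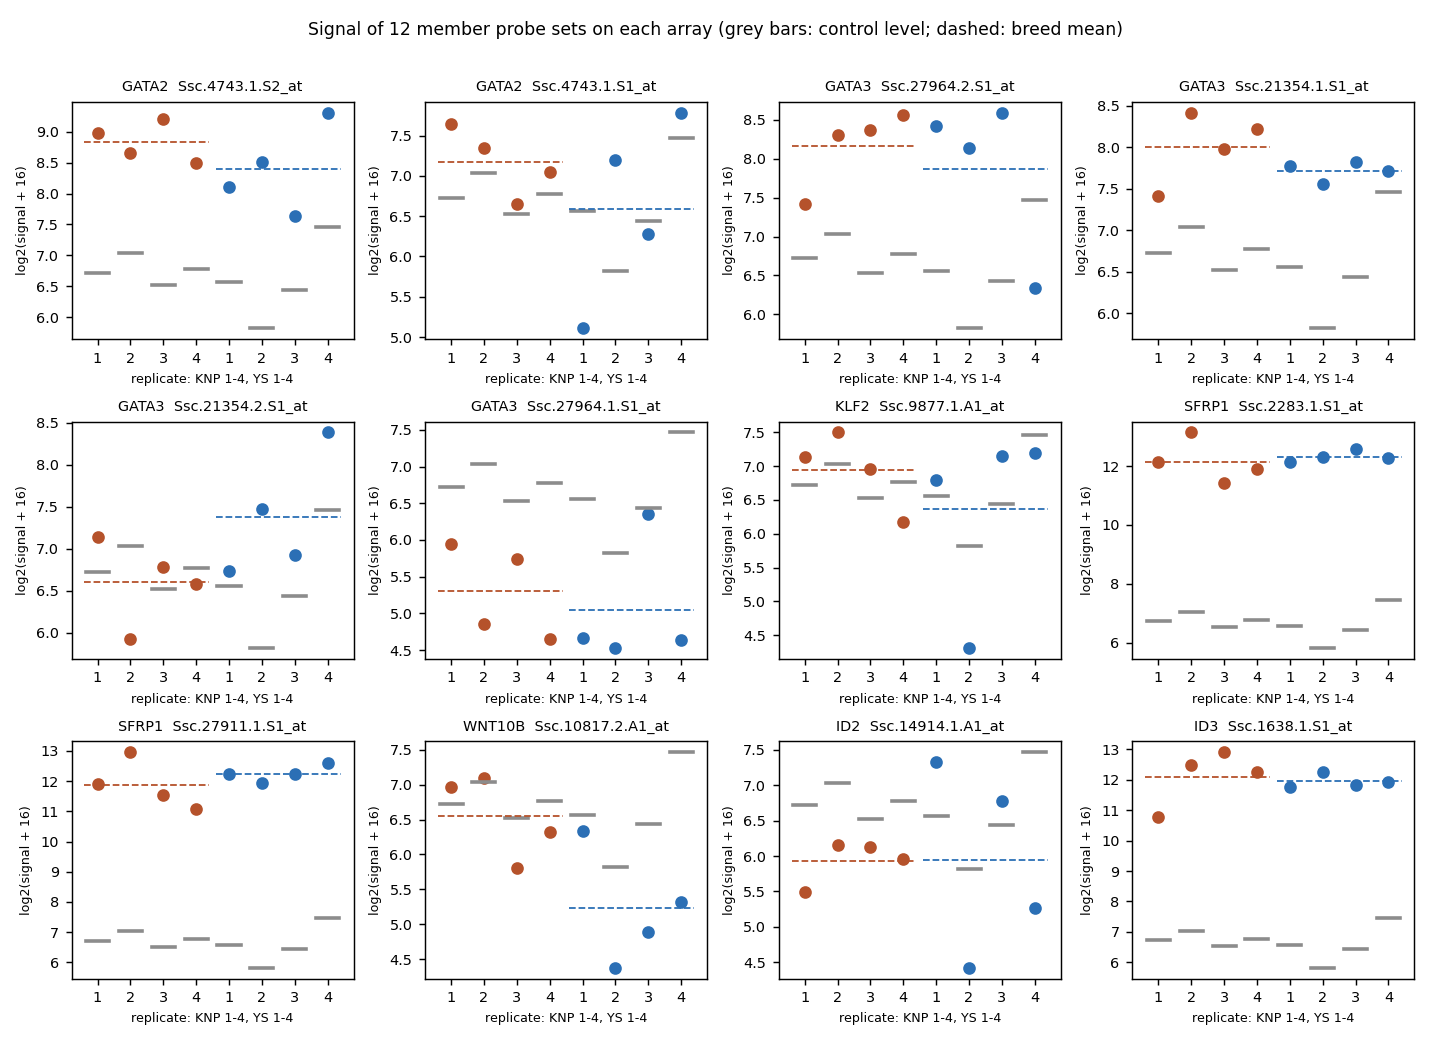
Each panel plots log2(signal + 16) of 1 member probe set on the 4 KNP (brown) and 4 YS (blue) arrays, with dashed lines for the breed means and grey bars for the control level of each array; the vertical scale differs between panels. SFRP1 and ID3 lay far above the grey bars on all 8 arrays, while ID2, WNT10B and the GATA3 probe set Ssc.27964.1.S1_at lay mostly below them, and in every panel the breeds overlapped.

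GATA2, the factor that keeps preadipocytes from maturing, was read by 2 probe sets, and both had the higher mean in KNP without passing the test. On Ssc.4743.1.S2_at the signal was 491, 386, 572 and 346 on KNP replicates 1 to 4, and 261, 348, 183 and 618 on YS replicates 1 to 4. All of these were above the control level; YS replicate 4 was the highest of all 8 and YS replicate 3 the lowest, so the YS arrays enclosed the KNP arrays. The log2 mean was 8.83 ± 0.32 in KNP against 8.39 ± 0.71 in YS (± SD of 4 arrays), a difference of 0.44 ± 0.37 (SE) with a 95% interval from -0.40 to 1.29 and an adjusted p of 0.9998 in limma. As a fold, the interval ran from 0.757 to 2.44 times the YS level.

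The dimmer GATA2 probe set, Ssc.4743.1.S1_at, gave signals of 184, 146, 84.2 and 116 in KNP and 18.5, 131, 61.4 and 205 in YS. All 4 KNP arrays and 2 YS arrays were above the control level, and YS replicate 1 stood lowest. Its log2 difference was 0.58 ± 0.54 (SE), from 7.17 ± 0.43 in KNP to 6.59 ± 1.17 in YS (± SD of 4 arrays), with an adjusted p of 0.9998 in limma. The 3 highest arrays on this probe set, YS replicate 4 and KNP replicates 1 and 2, were those with the largest 3'/5' difference. Without these 3 arrays the GATA2 differences were 0.76 and 0.65. Over all 8 arrays, a fit that held each array's 3'/5' difference as a term gave 0.37 and 0.33. Without YS replicate 4 alone they were 0.75 and 0.98, and without YS replicate 3 and YS replicate 1, respectively, they were 0.19 and 0.08.

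GATA3, a related repressor of PPAR gamma and also the master regulator of type 2 helper T cells, was read by 4 probe sets that did not move together from array to array. On Ssc.27964.2.S1_at the signal was 156, 302, 314 and 364 in KNP and 326, 266, 371 and 65.2 in YS. Only YS replicate 4 was under the control level, and KNP replicate 1 was the next lowest. The log2 mean was 8.17 ± 0.51 in KNP against 7.87 ± 1.04 in YS (± SD of 4 arrays), a difference of 0.29 ± 0.51 (SE). Its direction turned without YS replicate 4, to -0.22; the value was 0.57 with the 3'/5' term in the fit and 0.08 without the 3 arrays whose 3'/5' difference was largest.

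On Ssc.21354.1.S1_at, above the control level on all 8 arrays, GATA3 signal was 154, 326, 236 and 282 in KNP and 203, 173, 211 and 194 in YS. The YS arrays lay close together and 3 KNP arrays lay above them, while KNP replicate 1 was the lowest of all. The log2 difference was 0.29 ± 0.27 (SE), from 8.00 ± 0.44 to 7.72 ± 0.11 (± SD of 4 arrays), and its 95% interval, -0.33 to 0.90, was the narrowest among the 12 probe sets. This interval holds fold changes from 0.794 to 1.87.

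The other 2 GATA3 probe sets were dimmer. On Ssc.21354.2.S1_at the signal was 125, 45.1, 94.2 and 80.2 in KNP and 90.8, 161, 106 and 318 in YS, above the control level on 2 KNP and all 4 YS arrays. Here YS replicate 4 was the highest, the same array that was lowest on Ssc.27964.2.S1_at, and the sign was opposite to that of the other 3 probe sets: the log2 difference was -0.77 ± 0.42 (SE), from 6.61 ± 0.50 to 7.38 ± 0.74 (± SD of 4 arrays), and -0.44 without YS replicate 4. On Ssc.27964.1.S1_at every array was under the control level, with signals from 7.08 to 65.7, so it gives no measured level. None of the 4 passed (adjusted p of 0.9998 or above in limma). T and NK cell markers, of which 12 of 17 had a probe set, summed to between 1284 and 3205 in KNP and between 1805 and 3472 in YS; the sum was highest on YS replicate 4, and 1 of the 12 lay above the control level on no array. Their part in the GATA3 values was not tested.

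KLF2, a Krüppel-like factor abundant in endothelium and in resting T cells, lay near the control level. Its signal was 125, 165, 108 and 56.4 in KNP and 94.9, 3.84, 126 and 131 in YS. It was above the control level on 3 KNP and 2 YS arrays, the YS value of replicate 2 stood far below all others, and the remaining 7 arrays overlapped. The log2 mean was 6.94 ± 0.56 in KNP against 6.36 ± 1.38 in YS (± SD of 4 arrays), a difference of 0.58 ± 0.64 (SE) with an adjusted p of 0.9998 in limma. That single array set the sign: without YS replicate 2 the difference was -0.10.

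Among the secreted Wnt pathway proteins, SFRP1 gave a bright signal. SFRP1, or secreted frizzled-related protein, binds Wnt ligands and can thereby oppose the Wnt brake. On Ssc.2283.1.S1_at its signal was 4469, 9024, 2731 and 3797 in KNP and 4466, 5086, 6071 and 4890 in YS. On Ssc.27911.1.S1_at it was 3811, 7934, 2942 and 2137 in KNP and 4823, 3872, 4793 and 6226 in YS. On both, KNP replicate 2 was the highest of all 8 arrays and KNP replicates 3 and 4 were the lowest, with the YS arrays close together in between.

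SFRP1 had the lower mean in KNP on both probe sets, and neither passed. The log2 difference was -0.17 ± 0.37 (SE) on the first, from 12.15 ± 0.73 to 12.32 ± 0.18 (± SD of 4 arrays), and -0.39 ± 0.40 on the second, from 11.87 ± 0.80 to 12.25 ± 0.28 (adjusted p = 0.9998 for both in limma). The 95% intervals of the fold, 0.501 to 1.57 and 0.409 to 1.43 for KNP over YS, hold both lower and higher levels in KNP. Without KNP replicate 2, the array with muscle markers, the differences were -0.50 and -0.75, and without the 3 arrays whose 3'/5' difference was largest they were -0.68 and -0.83 (adjusted p = 0.609 and 0.528 in limma). With the 3'/5' term in the fit they were -0.33 and -0.60. Without KNP replicate 3 the first turned to 0.07, and without KNP replicate 4 the second was -0.12. Fibroblast and adipocyte progenitor markers, cells in which SFRP1 is known to be made, had the lower mean in KNP for 10 of the 11 with a probe set, with a median log2 difference of -0.55. Their summed signal was 39650 to 72230 in KNP, highest on KNP replicate 2 and lowest on KNP replicate 3. In YS it was 42320 on YS replicate 4 to 97270 on YS replicate 3, the highest sum of all arrays. The SFRP1 signal was highest of all on KNP replicate 2 on both probe sets. On Ssc.2283.1.S1_at it was lowest on KNP replicate 3, and its highest YS value was on YS replicate 3. On Ssc.27911.1.S1_at it was lowest on KNP replicate 4, and its highest YS value was on YS replicate 4. The part of these markers in the SFRP1 values was not tested.

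WNT10B, the Wnt ligand best known for holding precursors back, had the largest difference among the members and was barely measurable. Its signal was 110, 120, 39.9 and 64.3 in KNP and 64.6, 4.75, 13.6 and 23.8 in YS. Only KNP replicates 1 and 2 were above the control level and no YS array was; YS replicate 1 was above KNP replicates 3 and 4, so the breeds overlapped. The log2 mean was 6.55 ± 0.60 in KNP against 5.23 ± 0.83 in YS (± SD of 4 arrays), a difference of 1.32 ± 0.47 (SE) with an adjusted p of 0.9999 in limma. No fold is given, because the difference depended on values under the control level. With each YS array raised to its control level, and the KNP arrays left as measured, the YS mean was 6.57 and the difference -0.02. KNP replicates 3 and 4 were not raised, though they too were under the control level. The 2 arrays above that level were also the 2 with the largest 3'/5' difference, and without the 3 arrays of largest difference the value was 0.87, and 1.14 with the 3'/5' term. It also depended on the pseudocount, at 2.01 with a pseudocount of 1 and 0.71 with 64.

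The ID factors were at opposite ends of the signal range. ID3 was bright, with signals of 1742, 5722, 7643 and 4845 in KNP and 3432, 4868, 3638 and 3881 in YS. KNP replicate 1 was the lowest of all arrays and KNP replicate 3 the highest, and the YS arrays fell within the KNP range. The log2 mean was 12.10 ± 0.92 in KNP against 11.94 ± 0.22 in YS (± SD of 4 arrays), a difference of 0.16 ± 0.43 (SE) with a 95% interval from -0.82 to 1.14 and an adjusted p of 0.9998 in limma.

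The ID3 difference was 0.60 without KNP replicate 1, the array with the largest 3'/5' difference, and -0.10 without KNP replicate 3; with the 3'/5' term in the fit it was 0.43. The summed signal of 12 endothelial markers was lowest and highest on the same pair of arrays, at 12980 on KNP replicate 1 and 23650 on KNP replicate 3, and lay between 17000 and 18450 in YS; 9 of the 12 were above the control level on all arrays and 1 on none. The sums of smooth muscle and pericyte markers, at 22170, and of adipocyte markers, at 110100, were also highest on KNP replicate 3. Their lowest sums were on YS replicate 3 and YS replicate 4, respectively. The part of any of these markers in the ID3 values was not tested. ID2 was above the control level on no KNP array and on 2 YS arrays, with signals of 29.0, 55.1, 53.9 and 46.1 in KNP and 144, 5.46, 93.5 and 22.6 in YS. The KNP arrays were close together inside the wide YS range. The log2 difference was -0.02 ± 0.60 (SE). With each KNP array raised to its control level, and the YS arrays left as measured, the KNP mean was 6.76 and the difference 0.82. YS replicates 2 and 4 were also under their control levels and were not raised, so that value rests on a floor for KNP alone. The direction is not known and no fold is given.

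**Figure D2:**
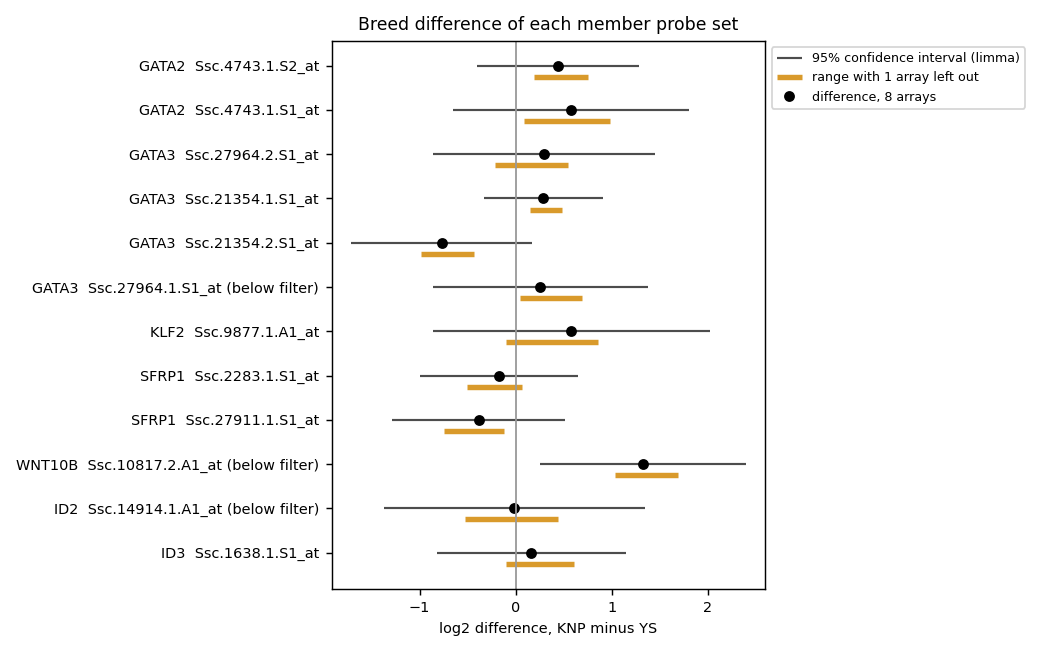
The plot gives the log2 difference, KNP minus YS, of each member probe set over 8 arrays (dot), its 95% confidence interval from limma (thin line) and the range of the difference when 1 array is left out (thick bar). The intervals of 11 of the 12 probe sets span 0; that of WNT10B, from 0.25 to 2.39, does not, before any adjustment for the number of probe sets tested.

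The members also differed in which breed varied more. SFRP1 and ID3 varied more among KNP arrays: the SD of log2 signal in KNP was 3.91 and 2.87 times that in YS for the 2 SFRP1 probe sets and 4.20 times for ID3. The GATA3 probe set Ssc.21354.1.S1_at was alike, at 3.82 times. In GATA2 the YS arrays varied more, by 2.23 and 2.75 times, and this held with any 1 array left out. In KLF2 the YS arrays varied more by 2.48 times through YS replicate 2 alone; without it the SD was 0.22 in YS and 0.56 in KNP. For the SFRP1 probe sets, ID3 and Ssc.21354.1.S1_at KNP stayed the more variable breed with any 1 array left out, but the ratios moved. Without KNP replicate 2, the array with muscle markers, they were 1.95 and 1.49 for SFRP1. Without KNP replicate 1, the array with the largest 3'/5' difference, the ratio was 1.93 for Ssc.21354.1.S1_at and 1.51 for ID3. The ID3 ratio reached 10.5 without YS replicate 2. Over the 17999 probe sets past the filter, the SD was at least 3 times larger in KNP for 8.86% and at least 3 times larger in YS for 4.93%, with medians of 0.52 and 0.47. Of the 9 member probe sets past the filter, 4 varied more in KNP, and 7 had a within-breed SD over the median of all probe sets, 0.54. Spreads over 4 arrays are imprecise, and the differences in spread were not tested.

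**Figure D3:**
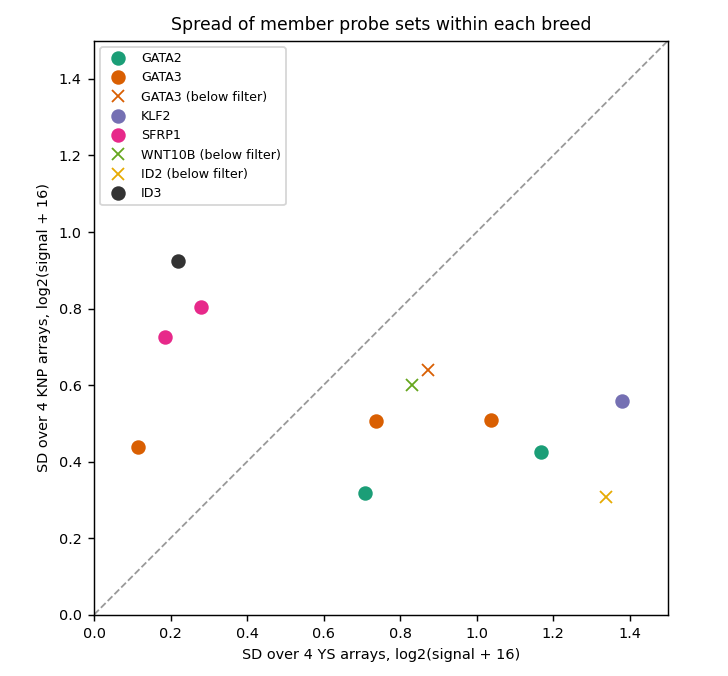
Each point is 1 member probe set, placed by the SD of log2(signal + 16) over the 4 YS arrays (horizontal) and over the 4 KNP arrays (vertical); crosses mark probe sets under the low-signal filter and the dashed line marks equal spread. ID3, both SFRP1 probe sets and 1 GATA3 probe set lie above the line, and GATA2, KLF2, ID2, WNT10B and the other GATA3 probe sets lie below it; KLF2, WNT10B and those GATA3 probe sets cross it when 1 YS array is left out.

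The genes around the brakes were read through 8 lists for the pathways in which the members act, with each gene represented by its brightest probe set. Of 63 genes past the filter, 0 passed an adjusted p of 0.05 in limma (0% of all probe sets past the filter), and 2 had an unadjusted p under 0.05 (2.84% of all). The mean was higher in KNP for 34 and lower for 29, with a median log2 difference of 0.03, beside 49.9% higher and a median of -0.0010 over all probe sets. The breeds did not overlap for 3 of the 63, against 1.96% of all probe sets: NR2F1, KLF9 and LPL.

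The list of other brakes on fat cell formation held HIF1A, FOXO1, NR2F1, NR2F2, DDIT3, PPARD, IRF3, INHBA and TGFB1 past the filter. PPARD was listed by name, and its place as a brake was not examined here. The mean was higher in KNP for 8 of these 9, with PPARD among them at 0.32, and none passed. The median difference was 0.26, or 0.16 without YS replicate 2, 0.17 without KNP replicate 1 and 0.15 with the 3'/5' term in the fit. NR2F1, an orphan nuclear receptor also called COUP-TFI, had signals of 740, 921, 661 and 534 in KNP and 234, 428, 424 and 457 in YS, every KNP array above every YS array. Its log2 difference was 0.88 ± 0.30 (SE; unadjusted p = 0.0160, adjusted p = 0.9998 in limma). Its relative NR2F2, or COUP-TFII, which represses PPAR gamma, was at 10.13 ± 0.24 in KNP against 9.52 ± 0.57 in YS (± SD of 4 arrays); of its other 3 probe sets, 1 turned the sign, at 9.56 ± 0.44 against 9.66 ± 0.50. FOXO1, which restrains PPAR gamma downstream of insulin, was at 10.67 ± 0.24 against 10.65 ± 0.23.

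The list of GATA and KLF relatives, without the members, also held the cofactor CTBP2, with a log2 difference of 0.26. In this list the mean was lower in KNP for 6 of 8 genes, none passed, and the median was -0.30. It was -0.18 without KNP replicate 1 and -0.05 without the 3 arrays whose 3'/5' difference was largest. KLF9, which promotes PPAR gamma expression and so acts opposite to KLF2, had signals of 3548, 4110, 2722 and 4779 in KNP and 6545, 6266, 6084 and 5721 in YS, every KNP array below every YS array. Its difference was -0.72 ± 0.25 (SE; unadjusted p = 0.0171, adjusted p = 0.9998 in limma). A second, dim KLF9 probe set did not show it, at 6.27 ± 1.82 against 6.21 ± 0.72 (± SD of 4 arrays) and above the control level on 2 KNP arrays and 1 YS array. KLF13 was at 10.26 ± 0.36 against 10.68 ± 0.44. GATA6 was above the control level on 1 KNP array and 2 YS arrays, and GATA4 on 0 and 1, while the brightest probe sets of GATA2 and GATA3 were above it on 8 and 7 of the 8 arrays.

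On the Wnt side, 12 of 33 listed receptors and transducers had a probe set, all past the filter, with 8 higher and 4 lower means in KNP, none past the test and a median of 0.05, which ran from -0.01 without KNP replicate 2 to 0.10 without YS replicate 1 when 1 array was left out. The receptor FZD4 was bright, at 14.05 ± 0.41 in KNP against 14.02 ± 0.38 in YS (± SD of 4 arrays), and its other probe set was at 10.41 ± 2.41 against 11.38 ± 1.05. Beta-catenin (CTNNB1), the transducer of WNT10B signals, was at 12.75 ± 0.12 against 12.85 ± 0.24, with the sign reversed on 1 of its other 4 probe sets. TCF7L1, a repressing partner of beta-catenin, was at 10.92 ± 0.11 against 10.54 ± 0.30, and the receptor FZD5 at 8.35 ± 0.16 against 8.06 ± 0.34. Other ligands and secreted modulators were thinly covered, with 2 of 26 past the filter. DKK3 was at 8.68 ± 0.65 against 9.11 ± 0.46, and DKK2 at 10.15 ± 0.25 against 10.21 ± 0.04. The other DKK2 probe set was at 8.96 ± 0.22 against 9.47 ± 0.57. Of the Wnt target genes only MYC was measured, at 9.36 ± 0.38 against 9.27 ± 0.17. None of these passed.

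For the ID factors, the list of family members, E protein partners and BMP input was split 4 to 4 with a median of -0.06, and none passed; with 1 array left out the median ran from -0.10 without YS replicate 2 to 0.08 without YS replicate 4. ID1, the BMP-induced relative of ID3, was at 11.15 ± 0.27 in KNP against 10.93 ± 0.27 in YS (± SD of 4 arrays), without the low value that ID3 had on KNP replicate 1. SMAD1, which carries BMP signals to the ID genes, was at 9.41 ± 0.52 against 9.80 ± 0.34, and BMP4 at 7.00 ± 1.08 against 7.61 ± 0.26. In the list for DLK1 and Notch the mean was lower in KNP for 5 of 7, none passed, and the median was -0.02; its sign turned without KNP replicate 1 (0.07), without KNP replicate 3 (0.01), with array weights (0.06) and without the 3 arrays whose 3'/5' difference was largest (0.24). The Notch effector RBPJ was at 9.28 ± 1.23 against 9.88 ± 0.41 and another RBPJ probe set turned the sign, at 9.40 ± 0.60 against 9.39 ± 0.36. HEY2, a Notch-induced repressor, was at 7.07 ± 0.74 against 6.17 ± 1.48, with the opposite sign on its other 2 probe sets.

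Of the programme that the brakes act on, 9 of 16 driver and adipocyte genes had the higher mean in KNP, none passed, and the median was 0.10. That median moved with single arrays: it was -0.22 without YS replicate 4, 0.23 without YS replicate 1, 0.19 without KNP replicate 1, 0.16 without YS replicate 2 and 0.02 without KNP replicate 4. PPARG, the target of GATA2, GATA3 and KLF2, was at 11.51 ± 0.65 in KNP against 11.78 ± 0.33 in YS (± SD of 4 arrays). CEBPB was at 12.93 ± 0.68 against 12.64 ± 0.07 and CEBPA at 8.23 ± 0.50 against 7.72 ± 1.37. CEBPD was at 12.12 ± 0.41 against 11.75 ± 0.43, with the opposite sign on 1 of its other 2 probe sets. Lipoprotein lipase (LPL) had signals of 10670, 15630, 15320 and 18670 in KNP and 20020, 22460, 22410 and 19030 in YS, every KNP array below every YS array. Its log2 difference was -0.50 ± 0.25 (SE; adjusted p = 0.9998 in limma), and its other probe set overlapped.

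**Figure D4:**
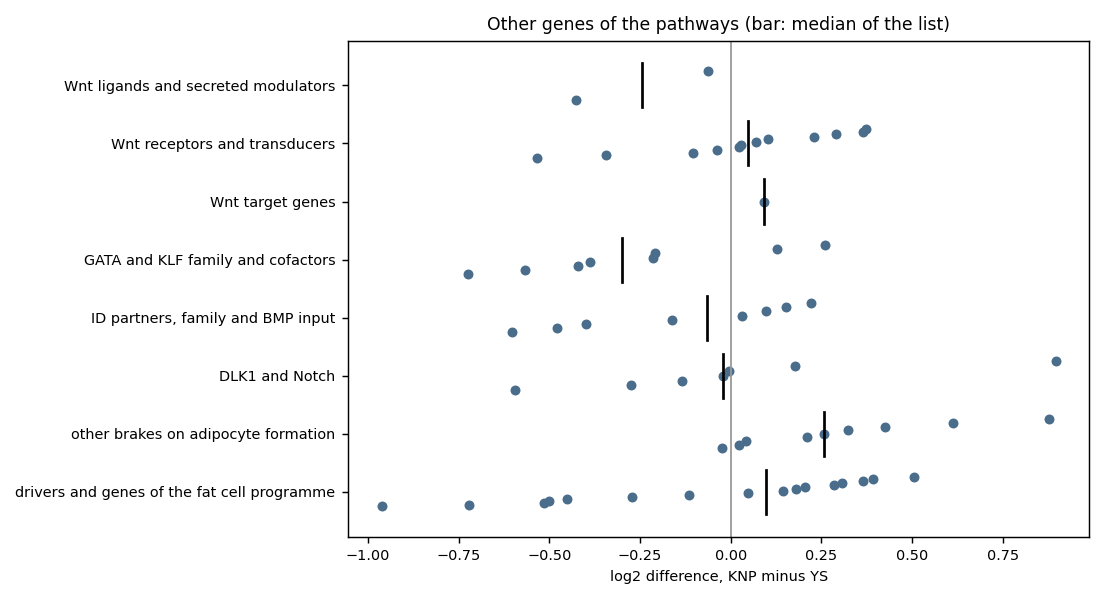
Each point is 1 gene past the low-signal filter, placed by its log2 difference, KNP minus YS, in 1 of 8 pathway lists, and the bar is the list's median. The points of most lists spread to both sides of 0. Of the genes listed as other brakes, 8 of 9 lie to the right. Of the GATA and KLF relatives and cofactors, 6 of 8 lie to the left, and no gene passed the test.

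The genes whose pattern over the 8 arrays was most like that of a member were sought for the 3 members whose brightest probe set was above the control level on every array, among 6005 other genes. For GATA2 these were MRTO4 (Pearson r = 0.979, Spearman rho = 0.952 over 8 arrays), CDC42EP1 (r = 0.978, rho = 0.976) and MUC15 (r = 0.964, rho = 0.976), the last above the control level on 4 arrays. For SFRP1 they were C1QTNF6 (r = 0.923, rho = 0.905), the muscle gene NEB (r = 0.919, rho = 0.881) and GNLY (r = 0.916, rho = 0.857). NEB reached a signal of 2747 on KNP replicate 2 and no more than 183 elsewhere. For ID3 they were GPIHBP1, the capillary anchor of lipoprotein lipase (r = 0.967, rho = 0.905), PHLDA2 (r = 0.958, rho = 0.857) and AFF1 (r = 0.954, rho = 0.881). GPIHBP1, like ID3, was lowest on KNP replicate 1, at 295, and highest on KNP replicate 3, at 865. These are the highest of many correlations over 8 arrays from arrays that also differ in their 3'/5' values, and they are given as a description with no test.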

How the data were processed

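The deposited table holds 1 intensity per probe set and array on a linear scale, for 24123 probe sets. The authors' scaling was read from the values: all 8 arrays had a mean of 500 once the top and bottom 2% were trimmed. How probes were summarised is not given in the labels or the file. Arrays carry no counts, and their number limits the precision. Values were transformed to log2(signal + 16). The 124 control probe sets were left out, as were the 25% of the other 23999 with the lowest mean log2 value. Gene symbols came from the platform annotation, which can be old: 10069 probe sets had 1 symbol, 198 several and 13732 none. All 7 matched members were found in RefSeq by Entrez identifier. The test of KNP against YS used limma 3.58.1 (R 4.3.3; a linear model with moderated variances, two-sided, Benjamini-Hochberg adjustment over all probe sets tested, threshold 0.05); the code was tested on simulated data, and statmod 1.5.0 served the robust fit. The members, lists and tests were chosen with earlier results of these data known. Every member probe set was named, the 2 genes of smallest p in each pathway list, and the 3 genes most like each bright member; FOXO1, FZD4, CTNNB1, GATA4, GATA6, ID1, PPARG, CEBPA and CEBPB were added for their roles after their values were seen. A gene outside the members was read through whichever of its probe sets had the highest mean. Other settings tried were pseudocounts of 1 and 64, quantile normalization and centring on medians, no filter and a 50% filter, array weights, a robust variance model with a trend, the replicate number as a block, the 3'/5' difference as a covariate, an adjusted p of 0.10, averaged probe sets per gene, each array left out and, chosen after seeing the data, the omission of the 3 arrays whose 3'/5' difference was largest and within-breed SDs with each array left out. Other marker lists covered mast cells, macrophages, smooth muscle, skin and red blood cells. None of their genes passed, and the median log2 differences were -0.38, -0.18, 0.32, -0.15 and -0.56.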

Additional observations from a re-analysis of the deposited data

Results flagged for a closer look

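In 2 of 24 sets of 4 arrays, 1 array stood far from the other 3 of its breed, with a gap to the nearest array over Dixon's 95% critical value; chance alone gives about 5%. The KLF2 value of YS replicate 2 was 4.31 on the log2 scale, and the next lowest YS array was at 6.79. The value of the GATA3 probe set Ssc.27964.1.S1_at on YS replicate 3 was 6.35, with the next at 4.66, and all 4 were under the control level.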

How the results depend on the processing

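The count of 0 probe sets past the test held in each of 20 alternatives for the whole table, 19 for the members and 20 for the pathway genes. The smallest adjusted p was 0.0596 over all probe sets, with the trend and robust variance model, and 0.528 over the members, when the 3 arrays whose 3'/5' difference was largest were omitted. The count at an unadjusted p under 0.05 over all probe sets ran, in planned settings with 17999 tested, from 417 without YS replicate 3 to 975 with array weights, was 372 of 11999 under the 50% filter and 734 of 23999 without a filter, beside 511 with all 8 arrays, and was 1492 when those 3 arrays were omitted. With the replicate block 0 member probe sets passed; deviations of same-numbered arrays correlated at -0.17, 0.02, 0.12 and -0.19, so the numbers were not taken as pairs. The sign of ID2 turned with quantile normalization (0.044), a pseudocount of 1 (0.26), array weights (0.13) and the 3'/5' covariate (0.13). With 1 array left out the difference ranged from -0.53 to 0.44 for ID2, from -0.10 to 0.86 for KLF2, from -0.10 to 0.60 for ID3, from -0.50 to 0.07 for SFRP1 on Ssc.2283.1.S1_at and from -0.22 to 0.54 for GATA3 on Ssc.27964.2.S1_at. The other 7 member probe sets kept their sign in every alternative run. They include the GATA3 probe set Ssc.27964.1.S1_at, under the control level on all 8 arrays. WNT10B is also among them, though its difference was -0.02 with the YS arrays alone raised to their control level. A floor for YS alone could only lower the difference, so that value does not set the sign. The cause of the changes of sign was not tested. Under the 50% filter the probe sets left out there have no value. Signals near the control level limit KLF2, WNT10B, ID2, the GATA2 probe set Ssc.4743.1.S1_at and 2 of the GATA3 probe sets.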
